A study of Mus musculus with 12 samples.

Results

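Expression of 43 interferon-stimulated genes, named by a fixed list of gene symbols, was described in cultured primary cardiomyocytes of the adult mouse. All 43 were found among the 22915 genes of the table, and 42 reached a normalized count of 10 or more in at least 3 libraries, the level required of every gene tested (13184 genes). Isg15 was the member below it. Cardiomyocytes of male C57/Bl6 mice, 12 weeks of age, had been kept in 6-well dishes and treated for 24 h in normoxia with murine oncostatin M (mOSM), a human-like oncostatin M (hlOSM) or the leukemia inhibitory factor of the mouse (mLIF), each at 25 ng/mL by the sample labels (the study's methods give a different concentration), or with an equal volume of PBS. mLIF signals through the LIF receptor (LIFR) and mOSM through the oncostatin M receptor (OSMR), while hlOSM is the murine protein with the AB loop of its human counterpart and engages both receptors. Each of the 4 conditions had 3 libraries of total RNA, 12 in all. The labels do not tie libraries to animals or separate preparations, so each p-value measures the spread between these libraries, part of which may be technical.

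Type I interferons bind a receptor that activates the kinases JAK1 and TYK2, which phosphorylate transcription factors of the STAT family. STAT2 acts with IRF9 in a complex that binds the interferon-stimulated response element (ISRE), whereas STAT3, the main STAT downstream of LIF and oncostatin M, binds the gamma-activated sequence (GAS). The induced proteins detect viral nucleic acid, block translation of viral RNA, tag proteins with ISG15 or restrict virus at membranes, and many are also made at a low tonic level without infection.

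Expression was lower with the oncostatin M proteins in most of these genes. With mOSM, 24 of the 42 tested members fell against PBS and 2 rose, where 15.8% of all tested genes fell and 15.4% rose. With hlOSM, 25 fell and 2 rose, against 19.8% and 18.2% of all genes. Both counts are read against the same 3 PBS libraries. The members were chosen with earlier results of these data known, so these shares describe the list and do not test it. The members' median log2 fold change was -0.43 with mOSM and -0.41 with hlOSM, while the median of all tested genes was -0.0043 and -0.0052. With mLIF, Sp100 fell and Parp9 rose (1 of 42 in each direction; 4.44% and 5.47% of all genes), with a median of -0.12. Calls here and below are those of limma on log2(normalized count + 1) at a Benjamini-Hochberg adjusted p under 0.05 over all 13184 genes, two-sided. In 15 of the 42 members, every one of the 6 mOSM and hlOSM libraries lay below every one of the 6 PBS and mLIF libraries, a pattern that 7.33% of all tested genes showed. In RNA of a whole culture, less RNA per cell and fewer cells of a type cannot be told apart, and markers of cardiomyocytes and mural cells also fell with both oncostatin M proteins, as given at the end.

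**Figure D1:**
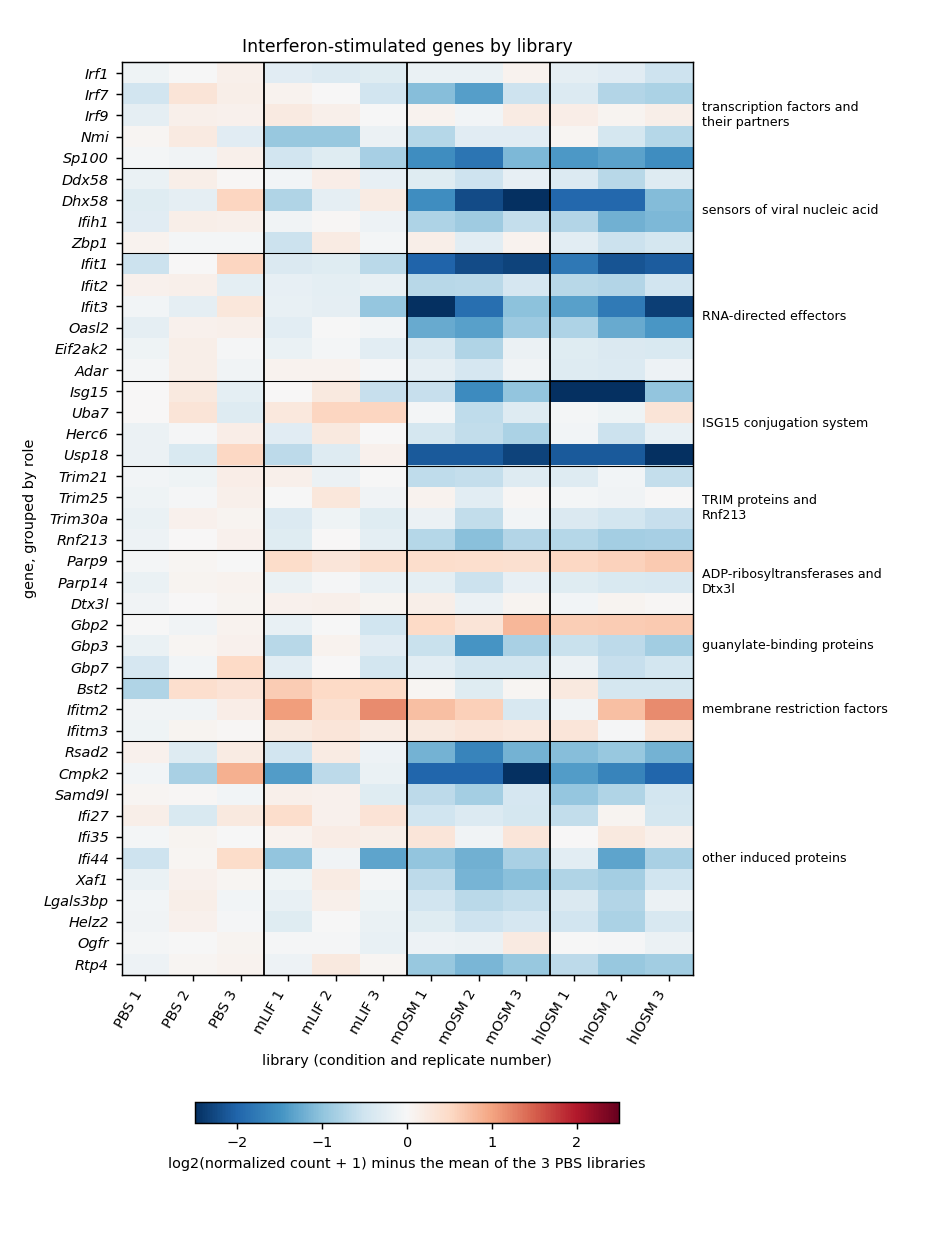
Heat map of the 43 interferon-stimulated genes (rows, grouped by role) in the 12 libraries (columns). Colour gives log2(normalized count + 1) minus the mean of the 3 PBS libraries, blue for lower and red for higher; the mOSM and hlOSM columns are mostly blue in rows such as Ifit1, Usp18, Dhx58 and Sp100, and red in Gbp2 and Parp9.

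PBS replicate 1 alone was the lowest of the 3 PBS libraries in 27 of the 42 members, where it was the lowest in 32% of all tested genes. Without it, 25 members fell with mOSM and 25 with hlOSM, with medians of -0.52 and -0.54. Of the 42 tested members, 35 had at least 10 in every library, of which 19 fell with mOSM and 20 with hlOSM. In Cmpk2, Dhx58 and Usp18, fewer than 3 of the 6 mOSM and hlOSM libraries reached 10. These genes passed the level through the PBS and mLIF libraries, so that passing it already required a difference for them.

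Many of these genes carry an ISRE core in their promoter. Shown are the stretches around the ISRE core for some of the members described below, as given by RefSeq for GRCm38.p6. They run 5′ to 3′ in the direction of the gene. Each match to the core (GAAA, any 2 bases, GAAA) or to its reverse complement (TTTC, any 2 bases, TTTC) is in capitals. Trim30a, Bst2 and Ifitm2 also hold a core upstream of a RefSeq start and are not printed. Gbp2 and Gbp3 are given as 30 bases because a window of 60 meets an annotated exon, and in Gbp2 the core itself lies after the gene start given by the annotation (142620602), though before the RefSeq start.
Ifit1, chr19:34640769-34640828 (+): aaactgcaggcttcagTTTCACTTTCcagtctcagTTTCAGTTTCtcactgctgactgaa
Ifit3, chr19:34583365-34583424 (+): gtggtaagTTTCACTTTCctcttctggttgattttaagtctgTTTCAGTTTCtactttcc
Rsad2, chr12:26456538-26456597 (-): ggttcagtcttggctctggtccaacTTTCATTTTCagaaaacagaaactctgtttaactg
Isg15, chr4:156200856-156200915 (-): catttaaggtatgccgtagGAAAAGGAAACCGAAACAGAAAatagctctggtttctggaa
Gbp2, chr3:142620594-142620623 (+): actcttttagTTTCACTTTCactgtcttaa
Gbp3, chr3:142559992-142560021 (+): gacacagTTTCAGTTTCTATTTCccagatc
Gbp7, chr3:142530258-142530317 (+): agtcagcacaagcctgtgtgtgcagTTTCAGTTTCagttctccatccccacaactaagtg
The windows of Ifit1 and Ifit3 each hold a pair of separate ISRE cores, and those of Isg15 and Gbp3 hold overlapping ones. The 3 guanylate-binding protein genes carry the core within 60 bases upstream of their RefSeq start.

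The genes that bind or edit RNA mostly fell, 5 of 6 with mOSM and 6 of 6 with hlOSM. Ifit1, Ifit2 and Ifit3 encode proteins with tetratricopeptide repeats that bind viral RNA or block its translation. Ifit1 (ENSMUSG00000034459, chr19:34640871-34650009) read 54, 79 and 115 in the PBS libraries, 61, 64 and 49 under mLIF, 19, 16 and 15 under mOSM and 22, 17 and 18 under hlOSM. All 6 mOSM and hlOSM libraries lay below all 6 PBS and mLIF libraries, and the PBS libraries were the most spread. The fitted level with mOSM was 0.22 times that with PBS (log2 -2.18 ± 0.21 SE, adjusted p = 3.52e-08), and with hlOSM 0.249 times (log2 -2.01 ± 0.21 SE, adjusted p = 8.73e-08). Ifit3 (ENSMUSG00000074896, chr19:34583531-34588731) read 38, 34 and 49 in the PBS libraries, 35, 34 and 20 under mLIF, 6, 10 and 19 under mOSM and 15, 11 and 7 under hlOSM. Its mOSM and hlOSM libraries were all below the lowest PBS library and did not overlap with mLIF, whose replicate 3 stood closest to them. The -1.82 and -1.82 log2 differences of Ifit3 from PBS had adjusted p = 0.00011 and 8.5e-05 (limma). Ifit2 (ENSMUSG00000045932, chr19:34550694-34576419) read 223, 227 and 176 in the PBS libraries, 180, 176 and 181 under mLIF, 128, 129 and 154 under mOSM and 127, 125 and 149 under hlOSM. Its change was smaller, log2 -0.60 ± 0.10 SE, adjusted p = 6.74e-05 with mOSM and log2 -0.63 ± 0.10 SE, adjusted p = 2.64e-05 with hlOSM, and here too every mOSM and hlOSM library lay below every other library.

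Oasl2, an OAS-like protein, read 60, 76 and 77 in the PBS libraries, 59, 70 and 67 under mLIF, 29, 27 and 37 under mOSM and 41, 29 and 25 under hlOSM. The oncostatin M libraries stayed below all others, with log2 -1.17 ± 0.17 SE, adjusted p = 1.26e-05 and log2 -1.16 ± 0.17 SE, adjusted p = 1.07e-05 for mOSM and hlOSM. Eif2ak2, which encodes the RNA-activated kinase PKR that halts translation, read 337, 405 and 355 in the PBS libraries, 325, 351 and 304 under mLIF, 275, 217 and 330 under mOSM and 294, 284 and 279 under hlOSM. Its mOSM libraries lay below every PBS library and overlapped with mLIF, with log2 -0.43 ± 0.10 SE, adjusted p = 0.00254 and log2 -0.35 ± 0.10 SE, adjusted p = 0.00974. Adar, the adenosine deaminase that edits RNA, read 114, 131 and 111 in the PBS libraries, 125, 125 and 116 under mLIF, 101, 88 and 111 under mOSM and 95, 93 and 108 under hlOSM. The hlOSM libraries were all below PBS by a small step (log2 -0.26 ± 0.10 SE, adjusted p = 0.0441), and the mOSM libraries touched the lowest PBS value (log2 -0.25 ± 0.10 SE, adjusted p = 0.0669). With replicate number entered as a block, the adjusted p of Adar with hlOSM was 0.0877, above the threshold of 0.05, and the call held in 10 of 21 alternative fits. For Adar, 16.8% of the exonic bases are shared with a gene on the other strand.

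**Figure D2:**
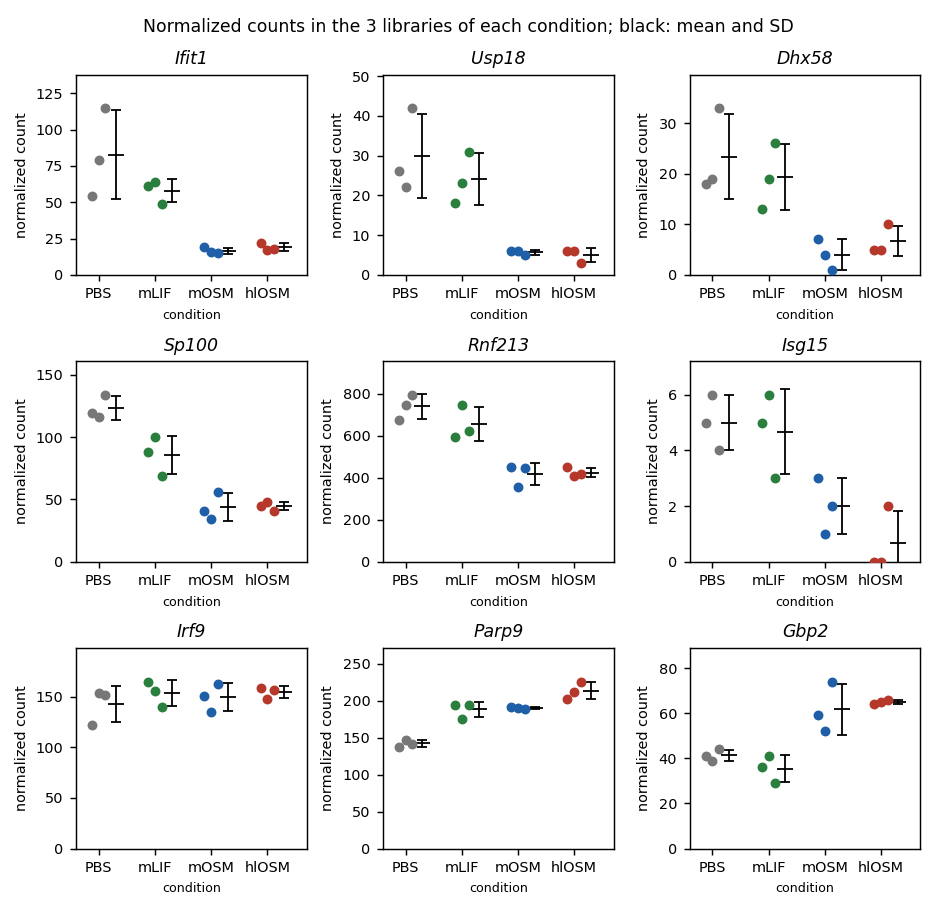
Normalized counts (y axis, linear from 0) of 9 genes in the 3 libraries of each condition (x axis), with the mean and SD in black. Ifit1, Usp18, Dhx58, Sp100, Rnf213 and Isg15 are lower in the mOSM and hlOSM libraries, Irf9 overlaps across conditions, and Parp9 and Gbp2 are higher with mOSM and hlOSM.

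Among the sensors of viral nucleic acid, 3 of 4 fell with each oncostatin M protein. Dhx58 (LGP2, a regulator of the RNA helicase sensors, chr11:100694884-100704271) read 18, 19 and 33 in the PBS libraries, 13, 19 and 26 under mLIF, 7, 4 and 1 under mOSM and 5, 5 and 10 under hlOSM. None of its 6 mOSM and hlOSM libraries exceeded 10, while the PBS and mLIF libraries lay at 13 or above. The change was log2 -2.45 ± 0.41 SE, adjusted p = 7.18e-05 with mOSM and log2 -1.68 ± 0.41 SE, adjusted p = 0.00243 with hlOSM, the widest errors among the sensors. Ifih1, which encodes MDA5, the sensor of long viral RNA, read 80, 108 and 107 in the PBS libraries, 91, 100 and 89 under mLIF, 57, 52 and 64 under mOSM and 58, 42 and 44 under hlOSM. Every mOSM and hlOSM library was below every PBS and mLIF library, with log2 -0.75 ± 0.14 SE, adjusted p = 0.000193 and log2 -1.02 ± 0.14 SE, adjusted p = 3.52e-06. Ddx58, which encodes RIG-I, the sensor of RNA ends, read 143, 176 and 162 in the PBS libraries, 153, 179 and 139 under mLIF, 129, 112 and 139 under mOSM and 126, 99 and 128 under hlOSM. The fall of Ddx58 was smaller, log2 -0.34 ± 0.11 SE, adjusted p = 0.026 and log2 -0.45 ± 0.11 SE, adjusted p = 0.00337, and mOSM overlapped with mLIF. Zbp1, a sensor of Z-form nucleic acid, read 22, 20 and 20 in the PBS libraries, 14, 24 and 20 under mLIF, 23, 17 and 22 under mOSM and 17, 14 and 15 under hlOSM, and neither change passed the test (log2 -0.01 ± 0.22 SE, adjusted p = 0.979 with mOSM and log2 -0.41 ± 0.22 SE, adjusted p = 0.14 with hlOSM).

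Sp100 and Irf7 fell among the transcription factors, whereas Irf9 stayed within its spread. Sp100, a component of nuclear bodies that represses viral chromatin (ENSMUSG00000026222, chr1:85649988-85709998), read 119, 116 and 134 in the PBS libraries, 88, 100 and 69 under mLIF, 41, 34 and 56 under mOSM and 45, 48 and 41 under hlOSM. PBS was highest, mLIF intermediate and both oncostatin M proteins lowest, with no overlap between these 3 levels. The change was log2 -0.53 ± 0.15 SE, adjusted p = 0.0307 with mLIF, log2 -1.5 ± 0.15 SE, adjusted p = 1.18e-07 with mOSM and log2 -1.44 ± 0.15 SE, adjusted p = 1.52e-07 with hlOSM. With replicate number entered as a block the mLIF value had adjusted p = 0.0618, and leaving out PBS replicate 1, PBS replicate 2, PBS replicate 3, mLIF replicate 1 or mLIF replicate 3 also ended that call. Irf7, the factor that amplifies interferon gene expression, read 29, 51 and 45 in the PBS libraries, 43, 41 and 29 under mLIF, 19, 15 and 28 under mOSM and 32, 24 and 23 under hlOSM. The fall with mOSM was log2 -0.98 ± 0.23 SE, adjusted p = 0.00218, and PBS replicate 1, at 29, stood just above mOSM replicate 3, at 28. The hlOSM difference of Irf7 (log2 -0.62 ± 0.23 SE, adjusted p = 0.0379) had adjusted p = 0.065 with the block and was past the threshold in 12 of 20 alternative fits.

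Irf1, a transcription factor induced through GAS elements, read 87, 93 and 102 in the PBS libraries, 77, 74 and 76 under mLIF, 83, 83 and 100 under mOSM and 80, 77 and 65 under hlOSM. The hlOSM libraries were all below PBS (log2 -0.34 ± 0.11 SE, adjusted p = 0.0169) and the mOSM libraries overlapped with PBS (log2 -0.09 ± 0.11 SE, adjusted p = 0.595); the mLIF libraries were below all PBS libraries without passing the test (log2 -0.31 ± 0.11 SE, adjusted p = 0.0783). Irf9, the DNA-binding partner of STAT2, read 122, 154 and 152 in the PBS libraries, 165, 156 and 140 under mLIF, 151, 135 and 163 under mOSM and 159, 148 and 157 under hlOSM. All conditions overlapped, and the 95% intervals of its log2 fold change ran from -0.13 to 0.27 with mOSM and from -0.08 to 0.32 with hlOSM. Nmi, an adaptor that binds STAT proteins, read 23, 26 and 18 in the PBS libraries, 11, 11 and 20 under mLIF, 13, 18 and 18 under mOSM and 23, 16 and 13 under hlOSM and passed with no cytokine (log2 -0.68 ± 0.26 SE, adjusted p = 0.102 with mLIF).

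The ISG15 system attaches the ubiquitin-like protein ISG15 to other proteins. Isg15 itself (chr4:156199455-156200796) was at the edge of detection and was not tested, with 5, 6 and 4 in the PBS libraries, 5, 6 and 3 under mLIF, 3, 1 and 2 under mOSM and 0, 0 and 2 under hlOSM. Its mOSM and hlOSM libraries lay at 3 or below, a value that mLIF replicate 3 also had, and 2 hlOSM libraries were listed at 0. Usp18, the protease that removes ISG15 and restrains the interferon receptor (ENSMUSG00000030107, chr6:121245906-121270917), read 26, 22 and 42 in the PBS libraries, 18, 23 and 31 under mLIF, 6, 6 and 5 under mOSM and 6, 6 and 3 under hlOSM. Its mOSM and hlOSM libraries lay at 6 or below and the others at 18 or above. Usp18 was fitted at 0.222 times the PBS level with mOSM (log2 -2.17 ± 0.30 SE, adjusted p = 5.94e-06) and 0.194 times with hlOSM (log2 -2.36 ± 0.30 SE, adjusted p = 1.4e-06). Herc6, the ligase for ISG15 in mice, read 32, 35 and 40 in the PBS libraries, 29, 42 and 36 under mLIF, 26, 23 and 20 under mOSM and 34, 24 and 31 under hlOSM. It fell with mOSM (log2 -0.61 ± 0.18 SE, adjusted p = 0.0122), where its libraries were all below PBS, and overlapped with PBS in hlOSM (log2 -0.27 ± 0.18 SE, adjusted p = 0.261). Uba7, the activating enzyme, read 24, 30 and 19 in the PBS libraries, 29, 35 and 35 under mLIF, 23, 15 and 19 under mOSM and 23, 22 and 30 under hlOSM, did not pass against PBS (log2 -0.34 ± 0.20 SE, adjusted p = 0.226 with mOSM and log2 0.05 ± 0.20 SE, adjusted p = 0.876 with hlOSM), and was lower with mOSM than with mLIF (log2 -0.78 ± 0.20 SE, adjusted p = 0.0126).

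Rnf213 and Trim21 fell with mOSM in the group of ubiquitin ligases and TRIM proteins, and Rnf213 and Trim30a with hlOSM. Rnf213, a giant ATPase and ubiquitin ligase (ENSMUSG00000070327, chr11:119393100-119487418), read 677, 746 and 795 in the PBS libraries, 596, 747 and 621 under mLIF, 449, 356 and 445 under mOSM and 450, 407 and 416 under hlOSM. The 6 oncostatin M libraries were all below the other 6. The change was log2 -0.83 ± 0.09 SE, adjusted p = 1.73e-07 with mOSM and log2 -0.80 ± 0.09 SE, adjusted p = 2.2e-07 with hlOSM, and 8.74% of its exonic bases are shared with a gene on the other strand. Trim21, the cytosolic antibody receptor, read 42, 41 and 50 in the PBS libraries, 48, 40 and 44 under mLIF, 28, 29 and 35 under mOSM and 35, 42 and 29 under hlOSM. The mOSM libraries were below all PBS libraries (log2 -0.52 ± 0.16 SE, adjusted p = 0.0157), and hlOSM replicate 2 reached the PBS range (log2 -0.33 ± 0.16 SE, adjusted p = 0.109). Trim30a, a TRIM protein that restrains inflammatory signaling, read 52, 63 and 61 in the PBS libraries, 46, 54 and 47 under mLIF, 53, 38 and 56 under mOSM and 45, 42 and 39 under hlOSM. The hlOSM libraries alone were below all PBS libraries (log2 -0.47 ± 0.15 SE, adjusted p = 0.0147), with log2 -0.27 ± 0.15 SE, adjusted p = 0.173 for mOSM. Trim25, which ubiquitinates RIG-I, ranged from 148 to 216 over the 12 libraries and gave log2 -0.05 ± 0.10 SE, adjusted p = 0.752 with mOSM.

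Parp9 and Dtx3l are neighbours on chromosome 16, transcribed in opposite directions, and their products act together in a complex that marks DNA damage and antiviral targets. Parp9 (ENSMUSG00000022906, chr16:35938470-35972605) read 138, 147 and 142 in the PBS libraries, 195, 176 and 194 under mLIF, 192, 190 and 189 under mOSM and 203, 212 and 226 under hlOSM. All 9 cytokine-treated libraries lay above all PBS libraries. Parp9 rose with mLIF (log2 0.40 ± 0.07 SE, adjusted p = 0.00136), mOSM (log2 0.42 ± 0.07 SE, adjusted p = 0.000116) and hlOSM (log2 0.58 ± 0.07 SE, adjusted p = 1.33e-06). Dtx3l (chr16:35926511-35939151) read 282, 303 and 314 in the PBS libraries, 321, 329 and 314 under mLIF, 331, 271 and 316 under mOSM and 284, 312 and 306 under hlOSM and overlapped across conditions, with log2 0.10 ± 0.07 SE, adjusted p = 0.399, log2 0.03 ± 0.07 SE, adjusted p = 0.819 and log2 0.01 ± 0.07 SE, adjusted p = 0.965. The genes share 458 exonic bases on opposite strands, 9.40% of those of Parp9 and 8.0% of those of Dtx3l, and the strand setting of the counting was not given in the sources used here. Parp14, an ADP-ribosyltransferase of the macrodomain family, read 271, 317 and 321 in the PBS libraries, 269, 298 and 264 under mLIF, 256, 207 and 263 under mOSM and 246, 232 and 230 under hlOSM. It fell with mOSM (log2 -0.33 ± 0.09 SE, adjusted p = 0.0056) and hlOSM (log2 -0.36 ± 0.09 SE, adjusted p = 0.00236), the opposite direction to Parp9.

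The guanylate-binding proteins, GTPases that coat pathogens, moved in both directions. Gbp2 (ENSMUSG00000028270, chr3:142620602-142638008) read 41, 39 and 44 in the PBS libraries, 36, 41 and 29 under mLIF, 59, 52 and 74 under mOSM and 64, 65 and 66 under hlOSM. Every mOSM and hlOSM library was above every PBS and mLIF library, and Gbp2 rose with mOSM (log2 0.55 ± 0.15 SE, adjusted p = 0.0059) and hlOSM (log2 0.64 ± 0.15 SE, adjusted p = 0.00142) and was not past the threshold with mLIF (log2 -0.23 ± 0.15 SE, adjusted p = 0.329). Gbp3 (chr3:142560026-142573209), on the same stretch of chromosome 3, read 41, 48 and 50 in the PBS libraries, 28, 49 and 38 under mLIF, 31, 16 and 26 under mOSM and 31, 29 and 25 under hlOSM. Its mOSM and hlOSM libraries were all below PBS, with log2 -0.95 ± 0.21 SE, adjusted p = 0.00161 and log2 -0.69 ± 0.21 SE, adjusted p = 0.0138, and overlapped with mLIF replicate 1. Gbp7 (chr3:142530342-142550149) read 37, 47 and 70 in the PBS libraries, 41, 50 and 36 under mLIF, 41, 36 and 36 under mOSM and 45, 33 and 36 under hlOSM and passed with no cytokine (log2 -0.39 ± 0.19 SE, adjusted p = 0.122 and log2 -0.39 ± 0.19 SE, adjusted p = 0.111). Gbp2 and Gbp3, whose printed windows both hold an ISRE core, moved in opposite directions with each oncostatin M protein. Genes of this family are close in sequence, and reads that matched several places were left out of the authors' counting.

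The membrane restriction factors were low to moderate. Bst2, which tethers virus at the cell surface, read 7, 17 and 16 in the PBS libraries, 20, 18 and 18 under mLIF, 13, 10 and 13 under mOSM and 15, 9 and 9 under hlOSM, with log2 -0.06 ± 0.29 SE, adjusted p = 0.899 and log2 -0.20 ± 0.29 SE, adjusted p = 0.615. Ifitm3, which blocks viral entry from endosomes, ranged from 35 to 48, with log2 0.27 ± 0.14 SE, adjusted p = 0.137 and log2 0.20 ± 0.14 SE, adjusted p = 0.262. Ifitm2 stayed at 11 or below, with log2 0.87 ± 0.39 SE, adjusted p = 0.162 for mLIF, and shares 40.9% of its exonic bases with another gene on the same strand. Under mLIF, 3 of 3 had every library above every PBS library, a pattern of 14.7% of all tested genes. Their values overlapped between PBS and hlOSM, and limma called none of these 3 genes with any cytokine, Ifitm2 with mLIF being the comparison with an unadjusted p under 0.05.

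Of the other 11 induced proteins, 8 fell with mOSM and 8 with hlOSM. Rsad2 (viperin, an enzyme that makes a chain-terminating nucleotide, chr12:26442746-26456452) read 26, 19 and 28 in the PBS libraries, 17, 28 and 22 under mLIF, 10, 7 and 10 under mOSM and 11, 12 and 10 under hlOSM. Cmpk2, its neighbour on chromosome 12 (chr12:26469204-26479837) and a nucleotide kinase, read 14, 8 and 28 in the PBS libraries, 5, 9 and 13 under mLIF, 3, 3 and 1 under mOSM and 5, 4 and 3 under hlOSM. The mOSM and hlOSM libraries of Rsad2 all lay below the others, and those of Cmpk2 were at 5 or below, a value that mLIF replicate 1 also had. The falls were log2 -1.34 ± 0.24 SE, adjusted p = 0.000175 and log2 -1.06 ± 0.24 SE, adjusted p = 0.00135 for Rsad2, and log2 -2.31 ± 0.43 SE, adjusted p = 0.000269 and log2 -1.68 ± 0.43 SE, adjusted p = 0.00403 for Cmpk2. Samd9l, a restriction factor that inhibits translation, read 92, 90 and 84 in the PBS libraries, 97, 96 and 72 under mLIF, 56, 49 and 66 under mOSM and 45, 52 and 64 under hlOSM. Rtp4, a chaperone of receptors, read 29, 33 and 34 in the PBS libraries, 29, 38 and 33 under mLIF, 16, 14 and 16 under mOSM and 20, 16 and 17 under hlOSM. Both had all oncostatin M libraries below the others, at -0.64 and -0.73 for Samd9l and -1.01 and -0.82 for Rtp4 (log2 fold changes with mOSM and hlOSM, limma adjusted p = 0.0014, 0.000314, 0.000151 and 0.00097).

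Xaf1, a factor that promotes apoptosis, read 23, 28 and 27 in the PBS libraries, 24, 30 and 25 under mLIF, 16, 11 and 12 under mOSM and 15, 14 and 18 under hlOSM. Helz2, a helicase that coactivates nuclear receptors, read 132, 152 and 138 in the PBS libraries, 114, 140 and 125 under mLIF, 113, 98 and 105 under mOSM and 101, 81 and 106 under hlOSM. In each of these genes the 6 oncostatin M libraries were below all others, with log2 fold changes of -0.96 and -0.70 for Xaf1 and -0.41 and -0.55 for Helz2 (limma adjusted p = 0.000958, 0.00957, 0.00468 and 0.000277). Lgals3bp, a secreted glycoprotein that binds galectins, read 115, 134 and 116 in the PBS libraries, 107, 133 and 112 under mLIF, 87, 76 and 80 under mOSM and 94, 73 and 109 under hlOSM. Its hlOSM replicate 3 overlapped with mLIF, and the falls were log2 -0.58 ± 0.12 SE, adjusted p = 0.000947 and log2 -0.41 ± 0.12 SE, adjusted p = 0.0107. Ifi44, an interferon-induced protein of unsettled function, read 20, 30 and 40 in the PBS libraries, 14, 27 and 11 under mLIF, 14, 12 and 16 under mOSM and 24, 11 and 16 under hlOSM. Its mLIF libraries overlapped with those of mOSM and hlOSM, with log2 -0.80 ± 0.30 SE, adjusted p = 0.0978, log2 -1.0 ± 0.30 SE, adjusted p = 0.0148 and log2 -0.80 ± 0.30 SE, adjusted p = 0.0437, and the hlOSM call held in 11 of 20 alternative fits. Ifi27, Ifi35 and Ogfr passed with no cytokine against PBS, at -0.43, 0.17 and -0.01 on the log2 scale with mOSM. Exonic bases shared with a gene on the same strand were 13.9% for Rtp4, 13.7% for Herc6 and 11.3% for Gbp7, and with a gene on the other strand 16.8% for Ifi35, 4.44% for Usp18 and 4.31% for Dhx58, and reads that touched several genes were left out of the authors' counting, so these genes may be counted in part.

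**Figure D3:**
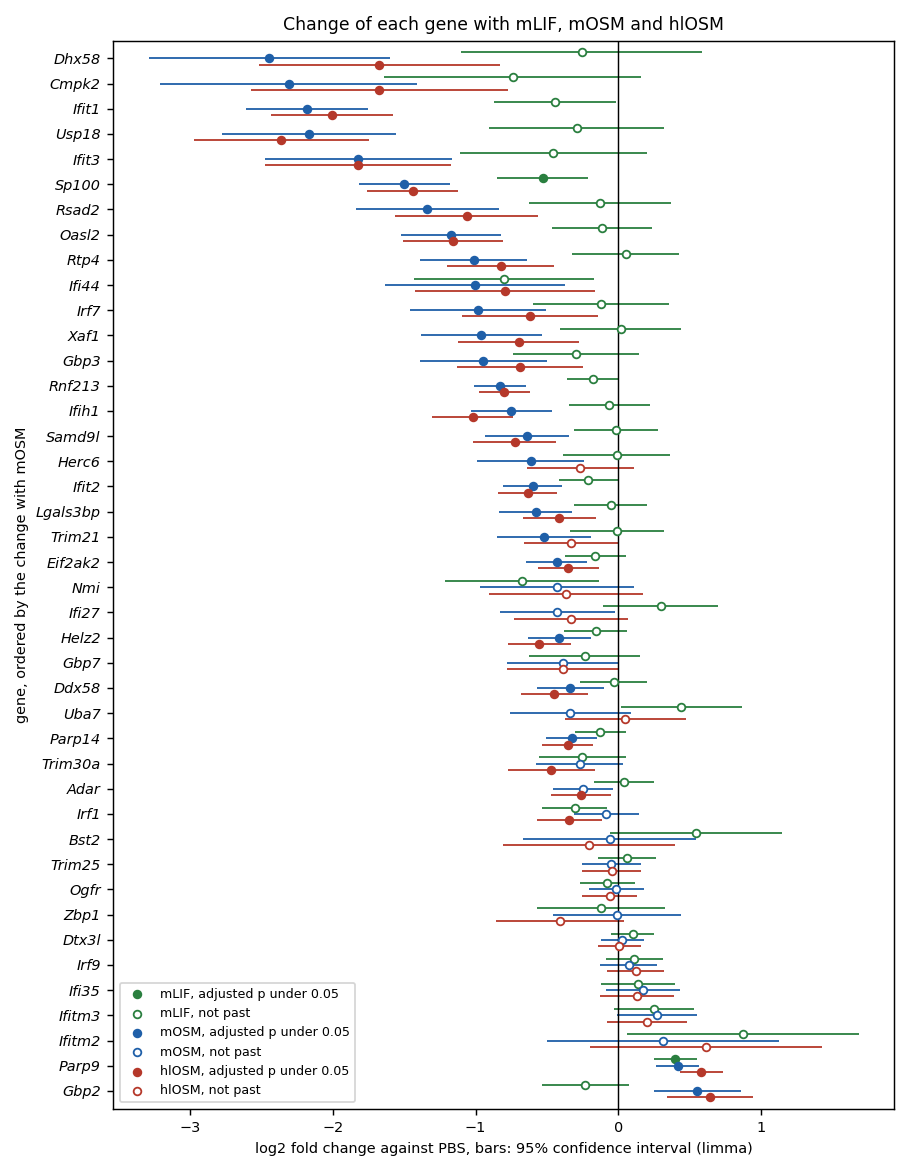
Log2 fold change against PBS (x axis) of the 42 tested genes (y axis, ordered by the change with mOSM) with mLIF, mOSM and hlOSM; bars are 95% confidence intervals from limma and filled points have an adjusted p under 0.05. The mOSM and hlOSM points lie left of 0 for most genes, and mLIF points mostly lie near 0; 95% intervals with mLIF were within 1 of 0 in 35 of 42 genes.

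Differences between the cytokines were tested directly. With mOSM against mLIF, 20 of the 42 members were lower and 1 was higher (5.76% and 6.05% of all tested genes). With hlOSM against mLIF, 18 were lower and 1 was higher (9.22% and 7.42%), and the member higher in each case was Gbp2 (log2 0.78 ± 0.15 SE, adjusted p = 0.000695 and log2 0.87 ± 0.15 SE, adjusted p = 0.00017). Against mLIF, Ifit1 was lower with mOSM (log2 -1.74 ± 0.21 SE, adjusted p = 2.98e-06) and with hlOSM (log2 -1.56 ± 0.21 SE, adjusted p = 9.6e-06). Usp18 stood at log2 -1.88 ± 0.30 SE, adjusted p = 0.000108 and log2 -2.07 ± 0.30 SE, adjusted p = 2.46e-05, and Sp100 at log2 -0.97 ± 0.15 SE, adjusted p = 0.000118 and log2 -0.91 ± 0.15 SE, adjusted p = 0.000184. Eif2ak2, Gbp3, Ifi44 and Parp14, lower than PBS with each oncostatin M protein, were not past the threshold against mLIF. Without mLIF replicate 2, the count for hlOSM against mLIF was 11.

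Adding LIFR to OSMR was addressed by hlOSM against mOSM. limma called none of the 42 members higher and none lower, where it called 0% higher and 0.106% lower among all tested genes. Irf1 (-0.26, from -0.49 to -0.03) and Parp9 (0.16, from 0.01 to 0.32) were the 2 members with an unadjusted p under 0.05, and the smallest adjusted p was 0.592. The 95% interval of the log2 difference lay within 1 of 0 in 39 of the 42 members, which leaves changes of less than that size undecided. Cmpk2, Dhx58 and Ifitm2, which have low values, had wider intervals, with Dhx58 at 0.77 (from -0.08 to 1.61).

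Levels between genes can be set side by side per kilobase of exon. In PBS the members with the most were Eif2ak2 at 71.5 normalized counts per exonic kilobase, Ogfr at 64.6, Ifitm3 at 56.0 and Ifit2 at 53.1. Uba7 at 3.64, Herc6 at 3.84 and Cmpk2 at 4.0 had the least among tested members. Summed over the 43 members, the normalized count was 4052 to 4627 in PBS, 3943 to 4464 with mLIF, 2907 to 3582 with mOSM and 3208 to 3400 with hlOSM. The mean sum with mOSM was 74.8% of that with PBS and with hlOSM 75.3%, with no overlap with PBS or mLIF. By role, the mean sum with mOSM was 64.3% of PBS for the RNA-directed effectors and 69.1% for the sensors, but 99.1% for Parp9, Parp14 and Dtx3l together.

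The other genes of the pathway moved in both directions. Of 34 tested genes of interferon receptors, kinases and STATs, other IRFs and sensing adaptors, 2 rose and 1 fell with mLIF, 6 rose and 2 fell with mOSM, and 5 rose and 4 fell with hlOSM. As shares, 5.88%, 17.6% and 14.7% of the pathway genes rose under mLIF, mOSM and hlOSM, beside 5.47%, 15.4% and 18.2% of all tested genes. Falls made up 2.94%, 5.88% and 11.8% of the pathway genes, beside 4.44%, 15.8% and 19.8% of all. Among 21 interferon ligand genes named, values were at hand for Ifnab and Ifnz, which stood at 6 or below and 2 or below, and the others were not analysed here. The type I receptor chains gave log2 fold changes of -0.07 and -0.06 for Ifnar1 and 0.20 and 0.16 for Ifnar2 with mOSM and hlOSM. Ifngr1, the ligand-binding chain of the type II receptor, fell with hlOSM (log2 -0.24 ± 0.08 SE, adjusted p = 0.0234; 0.0634 with the block), while Ifngr2, Ifnlr1 and Il10rb were at -0.10, 0.14 and -0.20 without passing.

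Stat2, the partner of Irf9, gave log2 -0.21 ± 0.12 SE, adjusted p = 0.202 with mOSM and log2 -0.27 ± 0.12 SE, adjusted p = 0.08 with hlOSM. Jak2, the kinase shared by many cytokine receptors, read 408, 433 and 454 in the PBS libraries, 426, 406 and 466 under mLIF, 612, 605 and 598 under mOSM and 609, 600 and 574 under hlOSM and rose with mOSM (log2 0.49 ± 0.06 SE, adjusted p = 1.52e-06) and hlOSM (log2 0.46 ± 0.06 SE, adjusted p = 2.4e-06), all 6 libraries above all others. Jak1 and Tyk2 were at 0.03 and -0.11 with mOSM and -0.01 and -0.24 with hlOSM without passing, Pias1 and Ptpn6 were at 0.04 and 0.49 with mOSM, and Socs1 did not exceed 4 in any library and was not tested.

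Irf2bpl rose with mOSM (log2 0.54 ± 0.07 SE, adjusted p = 2.07e-06) and hlOSM (log2 0.61 ± 0.07 SE, adjusted p = 2.97e-07), and Irf2bp2, a corepressor of IRF2, fell with mLIF, mOSM and hlOSM (-0.31, -0.42 and -0.66). Irf3 rose with mOSM (log2 0.24 ± 0.09 SE, adjusted p = 0.0418; 0.106 with the block), Irf2 fell with hlOSM (log2 -0.25 ± 0.07 SE, adjusted p = 0.0112), and Irf5, Irf8 and Irf2bp1 were at -0.59, 0.52 and -0.04 with mOSM without passing. The adaptors went up where they passed, apart from Ifi203. Sting1, the adaptor of cytosolic DNA sensing, read 18, 9 and 12 in the PBS libraries, 16, 27 and 27 under mLIF, 56, 56 and 32 under mOSM and 39, 42 and 64 under hlOSM and rose with mOSM (log2 1.81 ± 0.26 SE, adjusted p = 1.2e-05) and hlOSM (log2 1.83 ± 0.26 SE, adjusted p = 7.57e-06). Its mOSM and hlOSM libraries were all above the others. Myd88, the adaptor of Toll-like receptors, rose with all 3 cytokines (0.48, 0.85 and 0.80), and Tlr3, the endosomal receptor for viral RNA, did so too (0.74, 0.44 and 0.80). Ifi203, a member of the nuclear DNA sensor family, fell with mOSM (log2 -1.19 ± 0.20 SE, adjusted p = 9.42e-05) and hlOSM (log2 -1.27 ± 0.20 SE, adjusted p = 3.35e-05).

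Interferon-stimulated genes outside the list of 43 mostly fell where they passed the test. Of 50 tested, 20 fell and 4 rose with mOSM, 24 fell and 6 rose with hlOSM, and 4 fell and 1 rose with mLIF, beside the shares of all genes given above. Of the falls, 5 with mOSM and 5 with hlOSM (Ifit3b, Oas2, Sp110, Trim30d and Trim34a, chosen after their values were seen) were of genes that reached the level of 10 through PBS and mLIF libraries, so that passing it already required a difference. Iigp1, an immunity-related GTPase, read 923, 797 and 847 in the PBS libraries, 701, 695 and 664 under mLIF, 537, 540 and 613 under mOSM and 442, 507 and 500 under hlOSM. It fell with mLIF (log2 -0.31 ± 0.07 SE, adjusted p = 0.00486), mOSM (log2 -0.60 ± 0.07 SE, adjusted p = 3.83e-07) and hlOSM (log2 -0.82 ± 0.07 SE, adjusted p = 2.66e-09), with no overlap between PBS, mLIF and the oncostatin M proteins. Tent5a, a poly(A) polymerase, fell with all 3 cytokines (log2 -0.47, -0.53 and -0.83), Phf11d fell with mOSM (-0.63) and hlOSM (-0.79), and Trafd1 fell with mLIF (-0.27). With the block, the mLIF changes of Trafd1, Shisa5 and Irf2bp2 had adjusted p = 0.0602, 0.0654 and 0.0537 (limma), above the threshold. Shisa5 rose with all 3 cytokines (0.51, 0.58 and 0.78), and Cd274, which encodes the checkpoint ligand PD-L1, rose with mOSM (0.49) and hlOSM (0.58). Among these genes are also Cxcl9, a chemokine (1, 2 and 3 in the PBS libraries, 4, 5 and 3 under mLIF, 12, 5 and 8 under mOSM and 12, 14 and 12 under hlOSM), which reached the level of 10 through the oncostatin M libraries alone, and Tap1, the peptide transporter of class I presentation (-0.35 and -0.34, not past).

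ISRE cores were frequent in the promoters of the 43 genes, both in those that fell and in those that did not. RefSeq promoters, from 250 bases before to 50 bases after the start, were at hand for 36 members, and 16 of these (44.4%) held the ISRE core on either strand, against 3.99% of all 27025 genes with a promoter and 3.63% of the tested ones. The GAS core TTCNNNGAA was in 8 of 36 (22.2%) and in 9.55% of all genes. Of the 15 tested members with an ISRE core, 8 fell with mOSM and 8 with hlOSM, with median log2 fold changes of -0.39 and -0.39. Of the 20 with a promoter but without the core, 12 and 13 fell, with medians of -0.59 and -0.48. Members without a promoter at hand are in neither group. Of these, Dhx58, Usp18, Rtp4 and Parp14 fell with both oncostatin M proteins, Parp9 rose, and Zbp1 and Ifi27 did not pass. The core matches of Ifit1, Ifit3 and Rsad2 lay upstream, from position -156 to -76 counted from the start, while those of Eif2ak2, Ifih1, Ddx58 and Trim21 lay after the start. A match describes these letters and not bound protein.

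**Figure D4:**
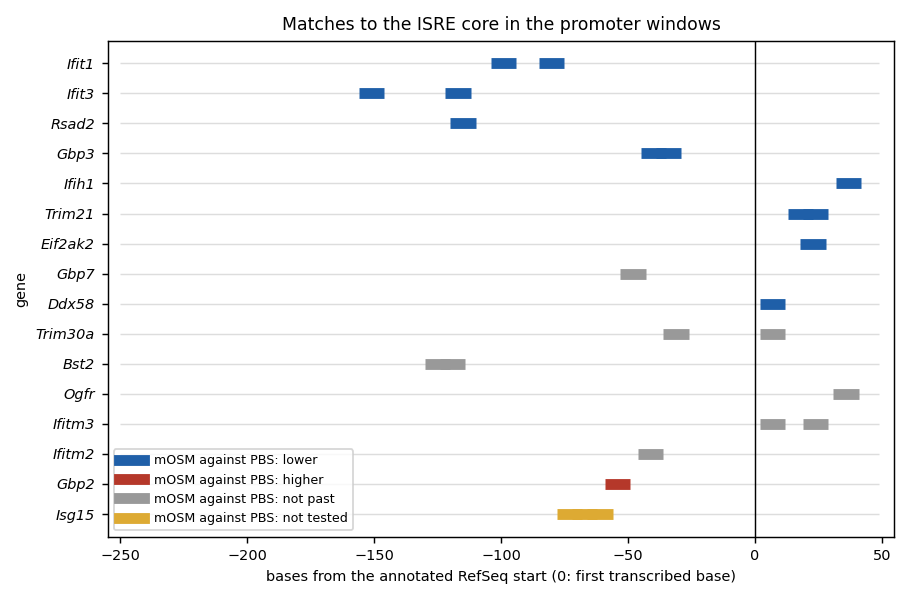
Position of each ISRE core match (coloured bars, x axis in bases from the annotated RefSeq start) in the promoter windows of the 16 genes that hold one (y axis, ordered by their change with mOSM), coloured by the call for mOSM against PBS. Genes that fell, rose or did not pass all have matches, upstream of the start or just after it.

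Marker genes of the cell types moved as well. Summed over 8 cardiomyocyte markers (Myh6, Tnnt2, Ttn and others), the level was 47572 to 49402 in PBS, 41237 to 43056 with mLIF, 33380 to 37353 with mOSM and 34186 to 36611 with hlOSM, and 7 of 8 markers fell with each oncostatin M protein. Ttn made up most of this sum, on average 22907 of 35043 with mOSM and 23564 of 35489 with hlOSM. Mural markers summed to 956 to 1201, 891 to 947, 677 to 729 and 617 to 637, with 5 of 7 falling with mOSM and 6 of 7 with hlOSM. The sum of the endothelial markers went the other way, from 1184 to 1249 in PBS to 1426 to 1632 with mOSM and 1424 to 1552 with hlOSM. With each, 5 of 8 rose and 1 fell. Fibroblast markers overlapped between PBS and hlOSM (2296 to 2526 and 2307 to 2540), with 3 of 8 higher and 5 lower with hlOSM. Leukocyte markers summed to 317 to 341 in PBS, 360 to 400 with mOSM and 334 to 403 with hlOSM, with Cd14, C1qa, C1qb and Cd79a at 9 or below in all libraries. Of the 6 leukocyte markers tested, 1 rose and 1 fell with each oncostatin M protein. The part that these shifts have in the values of the interferon-stimulated genes was not tested.

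**Figure D5:**
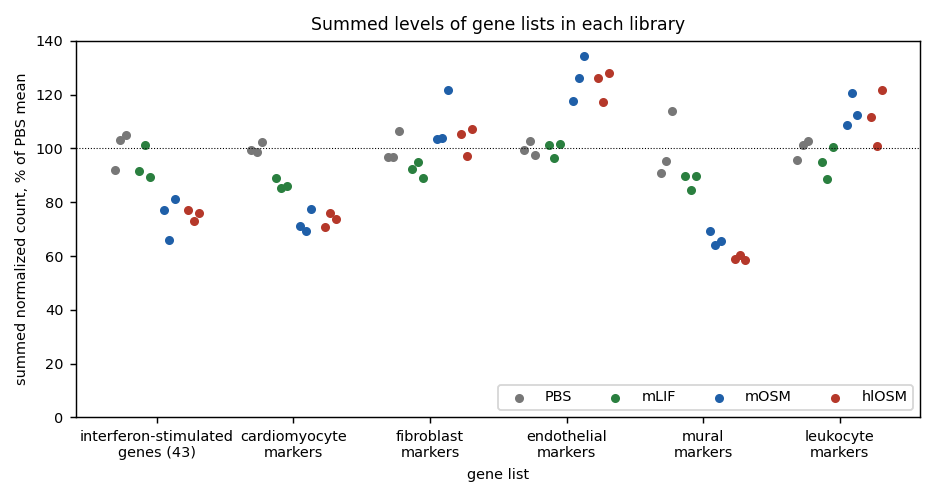
Summed normalized count of the 43 interferon-stimulated genes and of 5 marker lists (x axis) in each of the 12 libraries, as a percentage of the mean of the 3 PBS libraries (y axis, from 0). The interferon-stimulated genes, cardiomyocyte and mural markers are lower with mOSM and hlOSM, the endothelial markers are higher, and the fibroblast and leukocyte markers stay closer to 100.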

How the data were processed

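The 12 total RNA libraries (SMARTer Stranded Total RNA kit) were sequenced by the authors, whose processing notes name STAR 2.7.7a, featureCounts 1.6.5 and mm10. The deposited table holds normalized counts per gene, which the authors rounded to whole numbers, so they were handled as a score and not as raw counts. The normalization method and the depth of each library are not given in the sources used here, which state an average number of reads only. Column totals ran from 2745748 to 2911891, and no interval from counting was drawn.

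Genes with a value of 10 or more in at least 3 libraries (13184 of 22915) were transformed as log2(value + 1) and fitted with limma 3.58.1 in R 4.3.3, with 4 conditions, a mean-variance trend and no covariate. Fold changes are on that scale, which understates the change of genes with low values. Two-sided p-values were Benjamini-Hochberg adjusted over all genes tested. The script was tested on simulated data. Members, roles and pathway lists were chosen with earlier results of these data known, and were described by counts and medians beside those of all genes. Named in full were members past the threshold with any cytokine, Irf1, Irf7, Irf9 and Isg15, the tested pathway genes (1 is not reported here), and the 3 largest rises and falls among other interferon-stimulated genes with a mean of at least 50.

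The replicate numbers were not taken to pair the libraries. Motifs were searched in RefSeq promoters of GRCm38.p6 on both strands. Alternatives changed the pseudocount, filter, scaling, samples in the fit, block, threshold and libraries.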

Additional observations from a re-analysis of the deposited data

How the results depend on the processing

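No tested member turned its direction against PBS where past the threshold. Single changes between the cytokines, and those of genes outside the member list, were followed only with replicate number entered as a block. Of 2586 values of single members against PBS under the alternatives, 2522 kept their side of the threshold, 53 lost the call and 11 gained it. In 47 values the sign differed, without being past the threshold in either fit. Each called member was followed through the alternative fits that tested it, at an adjusted p under 0.05 with no minimum fold. In all of those fits, 21 of 26 stayed past the threshold with mOSM, 19 of 27 with hlOSM and 1 of 2 with mLIF. A filter at 50 tested only 22 members, and all 22 kept their call against PBS with each cytokine. With this filter, 12 members were lower with mOSM, 15 with hlOSM, 8 with mOSM against mLIF and 11 with hlOSM against mLIF. The same filter gave 11 and 13 lower and, with hlOSM, 2 higher among the other interferon-stimulated genes.

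Listed next are the counts that moved to 0 or by a factor above 1.5. Members lower with mOSM and with hlOSM against PBS were also fewer under both stricter thresholds, by a smaller factor. A minimum change of 1.5-fold left 0 higher and 0 lower members with mLIF, 0 higher with mOSM and 1 higher with hlOSM. Of the pathway genes it left 1 higher and 0 lower with mLIF, 2 higher and 1 lower with mOSM and 2 lower with hlOSM. Of the other interferon-stimulated genes it left 0 higher and 1 lower with mLIF, and 1 higher and 12 lower with mOSM. An adjusted p under 0.01 gave 0 lower members with mLIF, 13 with mOSM against mLIF and 11 with hlOSM against mLIF. Pathway genes lower at that level were 0 with mLIF and 2 with hlOSM. Other interferon-stimulated genes at that level were 0 higher and 2 lower with mLIF, 2 higher and 12 lower with mOSM, and 15 lower with hlOSM. Quantile normalization left 0 of the other interferon-stimulated genes higher with mLIF.

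Entering replicate number as a block, 24 members were lower with mOSM, 22 with hlOSM, 18 with mOSM against mLIF and 14 with hlOSM against mLIF, and 0 with mLIF. The block also left 0 lower pathway genes and 0 higher other interferon-stimulated genes with mLIF. Libraries with the same number were not unrelated, since they deviated in opposite senses. Their 18 pairs had correlations from -0.406 to -0.151, against 0.00438 to 0.328 in the 36 pairs with different numbers. Replicate number took up 1.7% of the spread inside conditions, and a number without effect would take up 25%. For 0 of 12 libraries was the best correlation with their own number. Fits without the block may therefore understate the spread, and where the counts differ those with the block are the more cautious. The cause of this relation between same-numbered libraries was not tested.

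Leaving out 1 library at a time gave 0 to 2 lower members with mLIF, 20 to 25 with mOSM, 20 to 25 with hlOSM, 14 to 21 with mOSM against mLIF and 11 to 19 with hlOSM against mLIF (lowest without mLIF replicate 2). The median with hlOSM ran from -0.54 (without PBS replicate 1) to -0.41. Pathway genes lower ran from 0 to 2 with mLIF and 3 to 7 with hlOSM (highest without PBS replicate 1). Other interferon-stimulated genes ran from 0 to 2 higher and 2 to 5 lower with mLIF, and 2 to 5 higher with mOSM. The depth of each library is unknown, and low members such as Ifitm2, Cmpk2 and Dhx58 carry the widest errors.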

Other observations

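Some interferon-stimulated genes outside the list of 43 stood out after their values were seen, and are given as values. Ddx60, a helicase related to the RNA sensors, read 70, 66 and 106 in the PBS libraries, 31, 48 and 48 under mLIF, 27, 16 and 19 under mOSM and 18, 21 and 12 under hlOSM, with log2 -0.91 ± 0.23 SE, adjusted p = 0.0149 for mLIF, log2 -1.91 ± 0.23 SE, adjusted p = 1.17e-06 for mOSM and log2 -2.18 ± 0.23 SE, adjusted p = 1.32e-07 for hlOSM against PBS (limma). The 3 conditions with a cytokine were all below PBS. Ifit3b, a close copy of Ifit3 with which it can share reads, read 21, 21 and 30 in the PBS libraries, 16, 21 and 12 under mLIF, 6, 6 and 6 under mOSM and 7, 5 and 7 under hlOSM, with log2 -1.82 ± 0.27 SE, adjusted p = 1.7e-05 for mOSM and log2 -1.76 ± 0.27 SE, adjusted p = 1.84e-05 for hlOSM. It reached the level of 10 required for testing through PBS and mLIF libraries alone, so that being tested already required a difference.

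The guanylate-binding proteins outside the list also moved in both directions. Gbp4 read 16, 17 and 20 in the PBS libraries, 12, 18 and 16 under mLIF, 28, 21 and 12 under mOSM and 37, 32 and 56 under hlOSM and rose with hlOSM (log2 1.16 ± 0.26 SE, adjusted p = 0.00119), with log2 0.12 ± 0.26 SE, adjusted p = 0.76 for mOSM. Gbp5 read 13, 11 and 15 in the PBS libraries, 5, 16 and 6 under mLIF, 21, 11 and 24 under mOSM and 34, 22 and 24 under hlOSM, with log2 0.97 ± 0.33 SE, adjusted p = 0.0252 for hlOSM, and Gbp6 read 30, 21 and 25 in the PBS libraries, 16, 20 and 25 under mLIF, 15, 13 and 11 under mOSM and 10, 14 and 12 under hlOSM and fell (log2 -0.91 ± 0.23 SE, adjusted p = 0.00404 for mOSM and log2 -1.02 ± 0.23 SE, adjusted p = 0.00128 for hlOSM). Compared directly, hlOSM and mOSM did not differ past the threshold in Gbp4 (log2 1.04 ± 0.26 SE, limma adjusted p = 0.159). Nor did they in Gbp5 (log2 0.54 ± 0.33 SE, limma adjusted p = 0.75).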
